A study of Homo sapiens with 8 samples.

Results

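The 46 genes described here encode the cytosolic factors that start, elongate and end protein synthesis, together with the 4E-BP repressors and the poly(A) binding proteins. They were chosen by name as a list of eukaryotic initiation, elongation and release factors, and all 46 symbols were found among the 58051 genes of the raw count tables. Expression was measured by sequencing the 3' ends of polyadenylated mRNA in 8 libraries of MDA-MB-231 (MDA231) cells, a basal, mesenchymal human breast cancer line. The question of the design was how the transcriptome differs when complex II of the respiratory chain, succinate dehydrogenase, cannot be assembled, and how it differs again when SDHA, its catalytic subunit, is also depleted.

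The parental group (n = 2) was unmodified MDA231 cells. The SDHBKO group (n = 3) lacked SDHB, the iron-sulfur subunit of complex II, after editing of exon 1 of the gene with a TALEN nuclease and selection with hygromycin. The SDHBKO SDHAlow group (n = 3) carried the same SDHB edit and, in addition, a stable shRNA against SDHA introduced by plasmid transfection and puromycin selection. No group received a drug, and all cells were harvested before confluency in complete medium. Each group was 1 subline in the labels, so effects of a gene and of the history of a subline cannot be told apart, and RNA from SDHBKO cells with an empty vector was not analysed here. The labels call the replicates biological without naming what separated them.

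Initiation of translation begins when eIF2, carrying GTP and the initiator tRNA, joins the small ribosomal subunit with eIF1, eIF1A, eIF3 and eIF5. The eIF4F complex (cap-binding eIF4E, scaffold eIF4G and helicase eIF4A) recruits this particle to capped mRNA, eIF5B joins the large subunit, and eEF1 and eEF2 then drive elongation until eRF1 and eRF3 release the chain. Supply is controlled at a pair of points: stress kinases phosphorylate eIF2 and block its recycling by eIF2B, and mTORC1 phosphorylates the 4E-BPs so that they let go of eIF4E. Many mRNAs of this machinery begin with a terminal oligopyrimidine (TOP) motif, which places their translation under mTORC1, and both kinds of control act on proteins and need not leave a trace in mRNA levels.

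The libraries held 773042 to 1427141 counts on genes, and 3 counts corresponded to 2.1 to 3.88 per 1000000 counts on genes before scaling. Levels are given as CPM, counts per 1000000 with library sizes scaled by the trimmed mean of M values (TMM). SDHA, the knocked-down gene, was read at 74.0 and 91.6 CPM in parental cells, at 148, 135 and 151 CPM in SDHBKO cells and at 8.45, 12.7 and 17.8 CPM in SDHBKO SDHAlow cells. Its mRNA fell by 3.46 ± 0.28 on the log2 scale (SE) from SDHBKO to SDHBKO SDHAlow cells (adjusted p = 1.16e-07, edgeR quasi-likelihood test), in the direction of the label. SDHB held 0 to 4 counts in every library and was not tested, and a 3' tag would not show an edit of exon 1. The line's mesenchymal markers VIM, CD44, EGFR, CAV1, FOSL1 and AXL were all read in every library. Of the luminal markers, ESR1 and PGR were at 0 in all 8 libraries, FOXA1, CDH1 and ERBB3 reached at most 3 counts, and GATA3 was read at 8 to 20 counts. Replicate 2 of SDHBKO SDHAlow was the deepest library and stood apart from its own replicates. The chi-squared statistic over genes, divided by its degrees of freedom, was 10.57 and 11.28 for pairs with it and 3.28 for the other pair of its group, and calls of members that change without it are named below.

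Translation factors took a slightly smaller part of the counts in SDHBKO cells than in parental cells. The 46 genes held 1.61% and 1.62% of the counts in parental cells, 1.49% to 1.54% in SDHBKO cells and 1.55% to 1.62% in SDHBKO SDHAlow cells. The SDHBKO shares lay below both parental shares, while the SDHBKO SDHAlow shares overlapped the parental ones. As a sum of CPM they reached 16140 ± 717.5 (SD, n = 2), 15600 ± 1042 (n = 3) and 16000 ± 454.8 (n = 3). These CPM sums, unlike the shares, differed by less than the spread between replicates. Since the values are shares of each library, less mRNA per cell and fewer mRNAs of 1 kind cannot be told apart.

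The members spanned a wide range of levels. Because a 3' protocol gives about 1 tag per transcript, the counts were not divided by length, and levels of different genes were compared only as tags. The mean over 8 libraries was at or above 1000 CPM for 5 members: EEF2, the translocase of elongation; EEF1D, an exchange factor of eEF1A; EIF1, which guards start codon choice; and the eIF3 subunits EIF3D and EIF3K. A further 19 members lay between 100 and 1000 CPM, 18 between 10 and 100 CPM, and 4 (EIF3C, EIF3E, EIF3L and EEF1G) under 10 CPM. EEF1G, a subunit of eEF1 whose mRNA is usually abundant, held 0 counts in every library, and EIF3C and EIF3L held at most 1. These low values touch on how reads were assigned: STAR counted reads that map to 1 place, 81.3% of the 50-base windows in the last 300 bases of EIF3C and 58.2% of those of EEF1G occur elsewhere in the genome, and EEF1G and EIF3L overlap exons of another gene on the same strand, which can leave reads ambiguous. The part of these features in the low counts was not tested. Of all members, 31 had no copied window and 15 had at least 1, the highest share being 83.3% for EEF1B2. The 3' ends of 5 members (EIF3L, EIF4A1, EIF6, EEF1G and PABPC1) overlap an exon of another gene on the same strand.

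**Figure D1:**
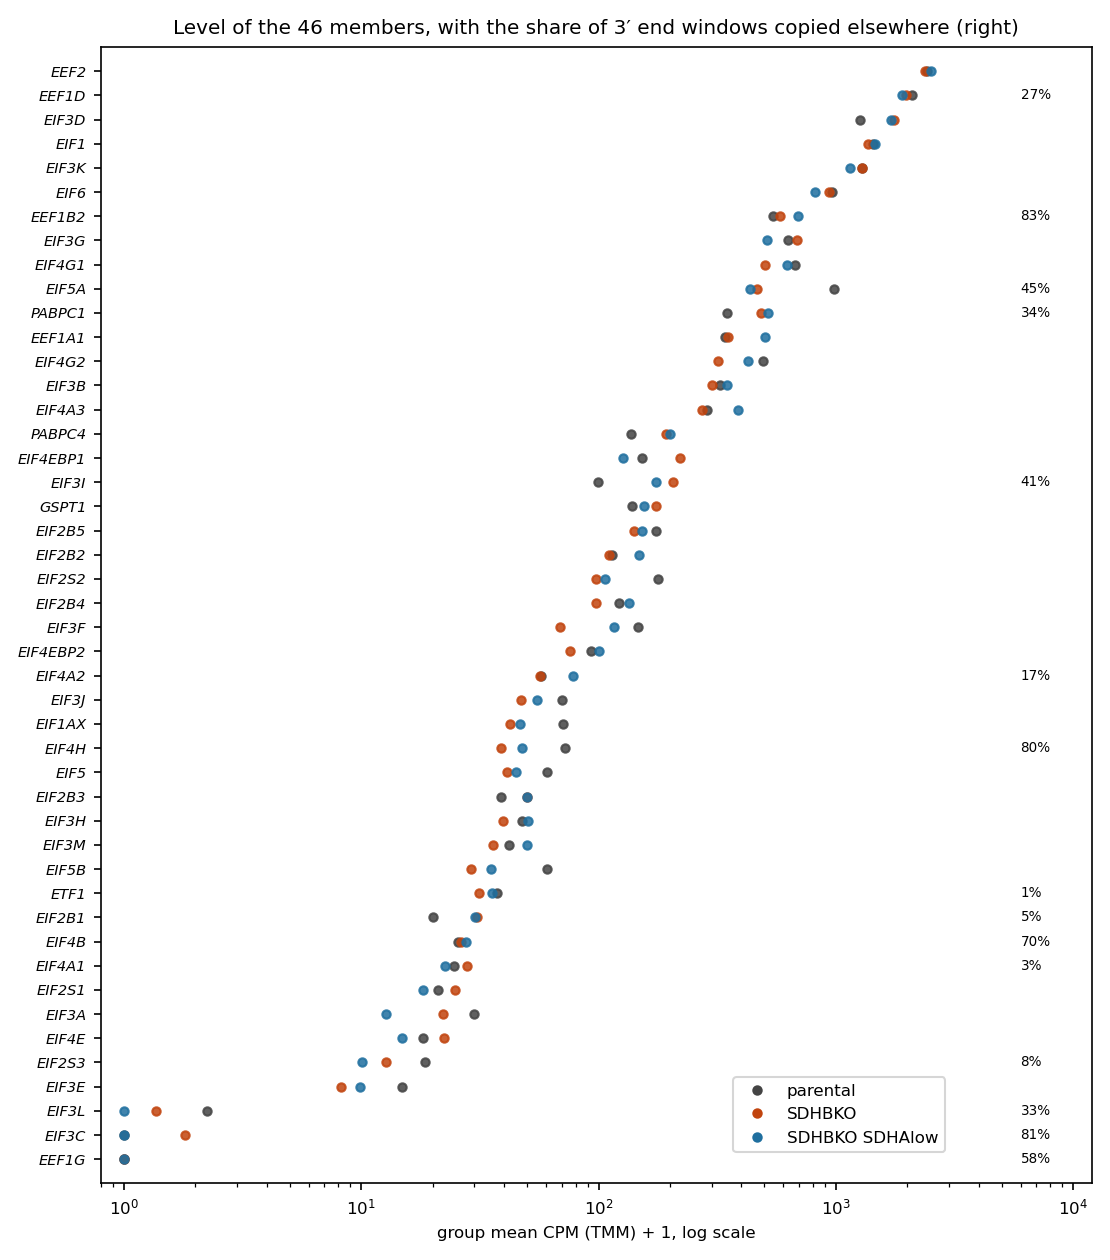
Mean level of the 46 translation factor genes in each group, as CPM + 1 on a log axis, with the share of 50-base windows of the 3' end that also occur elsewhere in the genome printed at the right where it is above 0. Points of the 3 groups lie close together for most genes. Wider gaps include the members called against parental cells: EIF5A (980 CPM in parental cells against 465 in SDHBKO and 435 in SDHBKO SDHAlow cells), EIF3F (146 against 67.5 and 115.5) and EIF3I (98.6 against 205 and 174).

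The 43 members with a mean normalised count (BaseMean) above 5 entered the tests, and EIF3C, EIF3L and EEF1G did not. In SDHBKO cells against parental cells 3 of the 43 members passed an adjusted p of 0.1: EIF5A and EIF3F fell and EIF3I rose. This is 6.98% of the members, beside 5.54% of the 7550 genes tested (3.14% higher and 2.4% lower), a share near the background. In SDHBKO SDHAlow against SDHBKO cells EIF4EBP1 alone passed, and fell, 2.33% of the members beside 1.51% of all genes (0.318% higher and 1.19% lower). In SDHBKO SDHAlow against parental cells EIF5A alone passed, and fell, again 2.33%, beside 0.914% (0.225% higher and 0.689% lower). At an unadjusted p of 0.05 in edgeR the members numbered 4 higher and 6 lower, 4 higher and 2 lower, and 4 higher and 3 lower in the 3 comparisons, beside 17.5%, 12.1% and 12.3% of all genes. Without SDHBKO SDHAlow replicate 2 the members called numbered 8, 4 and 1 in the 3 comparisons. Over all genes the calls in that fit also rose, to 11.4%, 5.03% and 2.32% of those tested. The added calls were EIF2S2, EIF3D, EIF4G2, EIF4H and EIF5B in SDHBKO against parental cells, and EIF3F, EIF4A3 and EIF4G1 in SDHBKO SDHAlow against SDHBKO cells. The library left out is in neither group of SDHBKO against parental cells, and acts on that comparison only through the shared fit. Calls without parental replicate 1 numbered 0 in each comparison. DESeq2 with all libraries made the same calls and added EIF4G2 in SDHBKO against parental cells. Both comparisons with parental cells rest on the same 2 parental libraries.

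The median of the list moved by small amounts. The median log2 fold change of the 43 members was -0.08, 0.10 and -0.11 in the 3 comparisons in that order, beside medians of -0.001, 0.013 and 0.017 over all genes tested. The members' median deviation from their mean varied between replicates with an SD of 0.075 on the log2 scale. It was 0.068 and 0.105 in parental libraries, and -0.008, -0.016 and -0.155 in SDHBKO libraries, all below the parental ones. In SDHBKO SDHAlow libraries it was 0.113, -0.051 and 0.031, overlapping both other groups. CPM values of the groups did not overlap for 12 members in SDHBKO against parental cells (5 higher, 7 lower; 27.9% beside 37.9% of all genes, 19.3% higher and 18.6% lower). The count was 6 in SDHBKO SDHAlow against SDHBKO cells (4 higher, 2 lower; 14% beside 17.4% of all genes, 8.7% higher and 8.69% lower) and 19 in SDHBKO SDHAlow against parental cells (9 higher, 10 lower; 44.2% beside 30.7% of all genes, 15.2% higher and 15.5% lower). SDHBKO cells held the lowest of the 3 group means for 22 members and the highest for 9. Parental cells held the lowest for 10 and the highest for 18, and SDHBKO SDHAlow cells the lowest for 11 and the highest for 16. This order was not counted over all genes, so these numbers have no background beside them. The standard errors, with a median of 0.28, 0.25 and 0.28, set what could be seen: the 95% interval of the log2 fold change lay within 1 of 0 for 20, 32 and 22 of the 43 members, so for the others a change of 2-fold is not excluded by its interval.

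**Figure D2:**
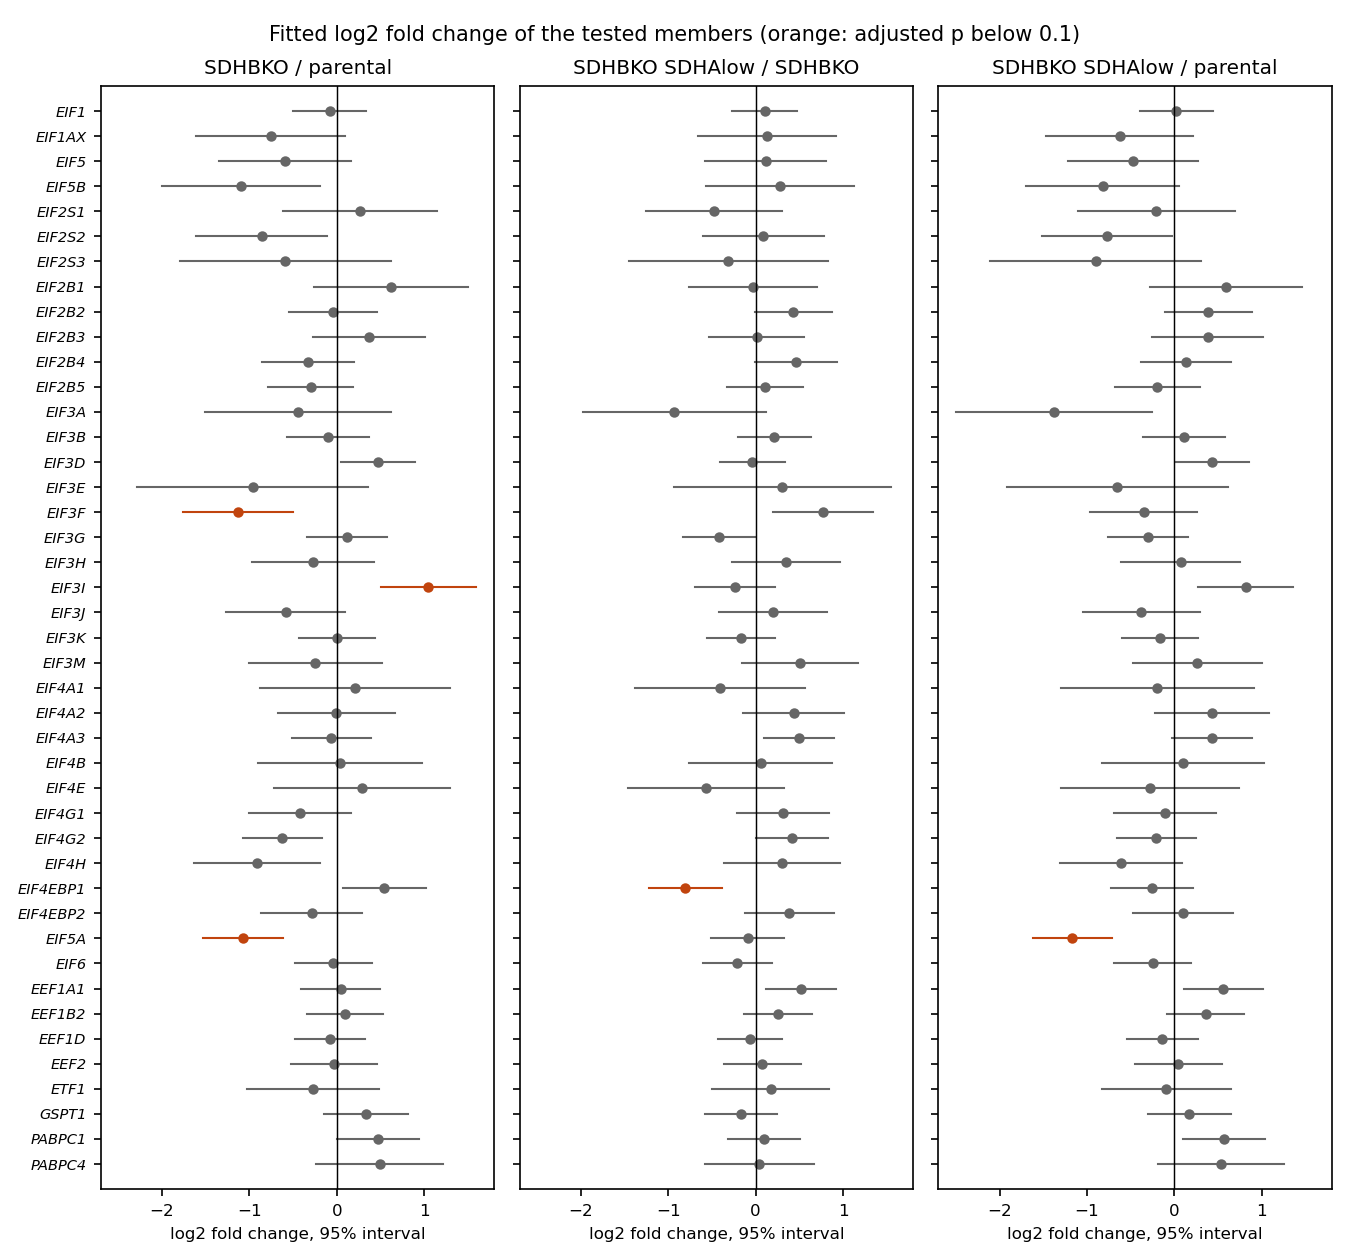
Fitted log2 fold change (x axis) of each of the 43 tested members with its 95% interval, in the 3 comparisons, members in order of role from start codon selection to poly(A) binding. Orange marks the calls at an adjusted p below 0.1: EIF5A (-1.08), EIF3F (-1.12) and EIF3I (1.05) at the left, EIF4EBP1 (-0.80) in the middle and EIF5A (-1.17) at the right.

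EIF5A showed the clearest difference from parental cells. It encodes the hypusine-containing factor that helps the ribosome through stretches such as consecutive prolines and promotes termination. Its gene lies on the short arm of chromosome 17 (GRCh38, chr17:7306999-7312463, plus strand; ENSG00000132507). The level was 1066 and 893 CPM in parental cells, 438, 488 and 468 CPM in SDHBKO cells and 336, 567 and 402 CPM in SDHBKO SDHAlow cells. Every library of both SDHB-deficient groups was below both parental libraries, and the SDHB-deficient groups overlapped each other. EIF5A fell by 1.08 ± 0.22 on the log2 scale (SE) in SDHBKO cells, to 0.475 of the parental level (edgeR adjusted p = 0.0124), and by 1.17 ± 0.22 in SDHBKO SDHAlow cells, to 0.445 of it (edgeR adjusted p = 0.0326). Between the SDHB-deficient groups the log2 difference was -0.09, with a 95% interval from -0.51 to 0.33. In the SDHBKO comparison the call was lost without parental replicate 1, where the fold change was -0.95 and the edgeR adjusted p 0.367; in that fit 0 of 7479 genes were called and 659 had an unadjusted p under 0.05. In SDHBKO SDHAlow against parental cells the edgeR adjusted p was 0.803 without parental replicate 1, 0.168 without SDHBKO SDHAlow replicate 1 and 0.125 with only the 2 groups in the fit.

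A technical measure and a positional one were set beside EIF5A. Of the 50-base windows at its 3' end, 45.4% occur elsewhere in the genome, and reads that map to several places were not counted. How many reads of EIF5A were lost in this way was not measured. Reads mapping to several places made up 10.2% to 10.9% of parental libraries, 14.5% to 16.1% of SDHBKO libraries and 9.7% to 12.3% of SDHBKO SDHAlow libraries. The share was thus higher in 1 of the groups with low EIF5A and near the parental share in the other, and its part in the result was not tested. Within 1000000 bases of EIF5A, 39 other genes were tested. In SDHBKO against parental cells 7 of these were called (among them MPDU1, FXR2 and RANGRF), each of them higher (3.14% of all genes tested), with a median log2 fold change of 0.33, opposite in sign to EIF5A itself. In SDHBKO SDHAlow against SDHBKO cells 5 were called, each of them lower (1.19% of all genes tested), with a median of -0.53. In SDHBKO SDHAlow against parental cells, where EIF5A was also called, 0 of the 39 were called (0.914% of all genes tested), with a median of -0.05. EIF4A1, encoding the helicase of eIF4F and also within this distance, was at 23.1 and 23.9 CPM in parental, 23.3, 20.01 and 37.8 CPM in SDHBKO and 37.4, 5.97 and 21.2 CPM in SDHBKO SDHAlow cells, with overlapping groups. Its 3' end overlaps exons of other genes on the same strand, which can leave reads ambiguous. The part of this overlap in its 8 to 35 counts per library was not tested.

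Enzymes that act on eIF5A were given by the pathway list. DHPS and DOHH, which make hypusine in sequence, had log2 fold changes of 0.17 and 0.31 in SDHBKO against parental cells, neither of which passed the test. In SDHBKO SDHAlow against SDHBKO cells they were -0.51 and -0.02, and again neither passed (edgeR adjusted p = 0.46 and 0.925). The paralogue EIF5A2 held 1 to 5 counts per library and was not tested.

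**Figure D3:**
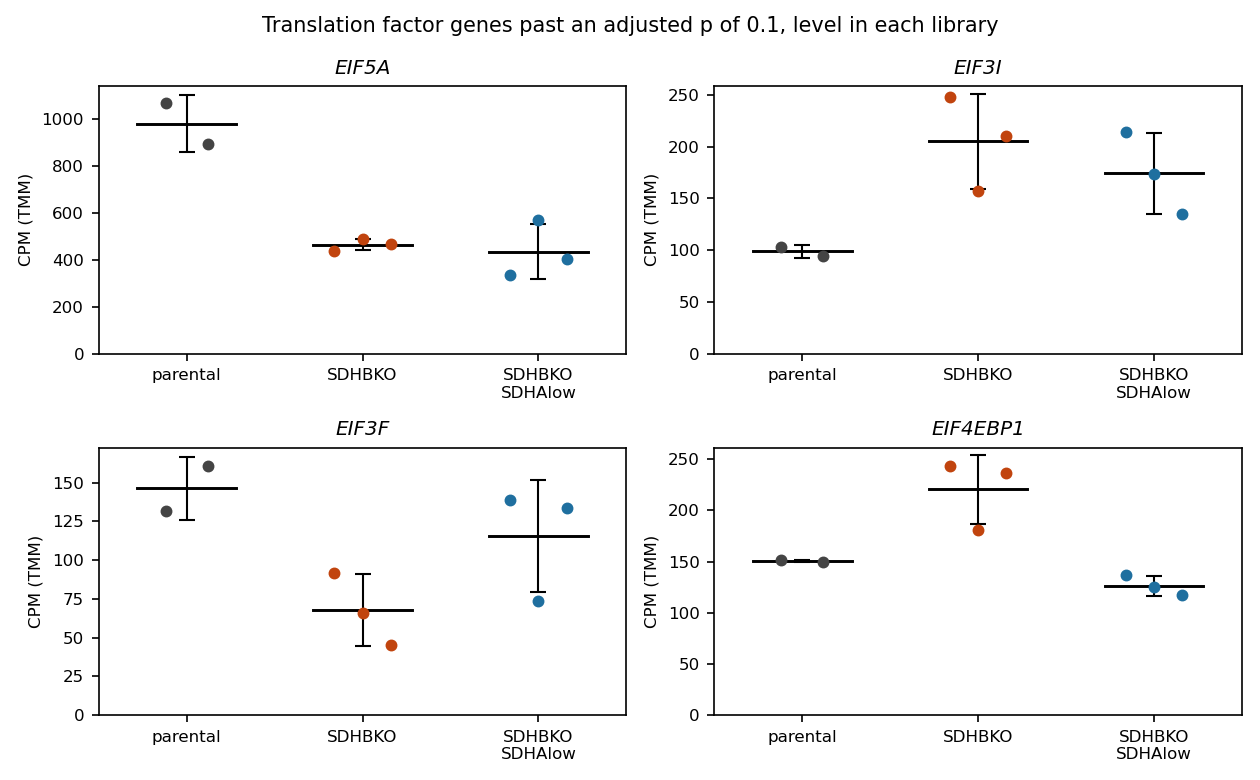
Level of the 4 members past an adjusted p of 0.1 in each library (points; CPM, linear axes from 0), with the group mean and SD as bars (parental n = 2, SDHBKO n = 3, SDHBKO SDHAlow n = 3). EIF5A is low in both SDHB-deficient groups, EIF3I is high in both, and EIF3F and EIF4EBP1 differ from the parental level chiefly in SDHBKO cells.

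The eIF3 complex, the largest initiation factor, holds the scanning particle together and bridges it to eIF4G. Of its 13 listed subunits, 11 were tested, and in SDHBKO cells against parental cells 1 rose and 1 fell. EIF3I, a subunit of the peripheral module of eIF3 (GRCh38, chr1:32221077-32245397, plus strand; ENSG00000084623), was at 103 and 94.2 CPM in parental cells, 248, 157 and 210 CPM in SDHBKO cells and 214, 174 and 135 CPM in SDHBKO SDHAlow cells. All 6 SDHB-deficient libraries lay above both parental ones. EIF3I rose by 1.05 ± 0.26 (log2, SE) in SDHBKO cells, or 2.07-fold (edgeR adjusted p = 0.0364), and its difference of 0.82 ± 0.26 in SDHBKO SDHAlow against parental cells did not pass (edgeR adjusted p = 0.183). The call was lost without either parental library and without SDHBKO replicate 1 or 3, with edgeR adjusted p up to 0.419. At the 3' end of EIF3I, 41.4% of windows occur elsewhere.

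EIF3F, which encodes an MPN-domain subunit of eIF3 and begins with a TOP motif (GRCh38, chr11:7970251-8001862, plus strand; ENSG00000175390), moved the other way. Its level was 132 and 161 CPM in parental cells, 91.7, 65.6 and 45.3 CPM in SDHBKO cells and 139, 73.9 and 134 CPM in SDHBKO SDHAlow cells. SDHBKO libraries were all below the parental ones, and SDHBKO SDHAlow libraries overlapped both groups, with replicate 2 the low one. EIF3F fell by 1.12 ± 0.30 on the log2 scale (SE) in SDHBKO cells, to 0.459 of the parental level (edgeR adjusted p = 0.0525). The rise of 0.77 ± 0.28 from SDHBKO to SDHBKO SDHAlow cells did not pass the test (edgeR adjusted p = 0.251), but was 1.01 ± 0.25 and passed without replicate 2 of SDHBKO SDHAlow (edgeR adjusted p = 0.0175). This rise passed in 1 of the 8 fits that leave out 1 library, with log2 differences from 0.53 to 1.04. The SDHBKO call was lost without either parental library or SDHBKO replicate 3, with edgeR adjusted p up to 0.359. No window at the 3' end of EIF3F was copied elsewhere.

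With all libraries in the fit, no other eIF3 subunit passed in any comparison. The scaffold subunit EIF3A was at 32.4 and 25.2 CPM in parental, 20.5, 32.2 and 10.8 CPM in SDHBKO and 15.7, 3.73 and 15.6 CPM in SDHBKO SDHAlow cells. The SDHBKO SDHAlow libraries lay below the parental ones, by -1.38 ± 0.54 on the log2 scale (SE; edgeR adjusted p = 0.286), and by -0.89 when replicate 2, with only 5 counts of EIF3A, was left out. EIF3D, a subunit that can itself bind the cap, was above the parental range in both SDHB-deficient groups, with log2 fold changes of 0.47 and 0.43 and edgeR adjusted p of 0.221 and 0.381. Without replicate 2 of SDHBKO SDHAlow, EIF3D passed in SDHBKO against parental cells (0.49 ± 0.18, edgeR adjusted p = 0.0955). The subunits EIF3B, EIF3G, EIF3H, EIF3J, EIF3K and EIF3M had log2 fold changes from -0.58 (EIF3J) to 0.12 (EIF3G) in SDHBKO against parental cells. EIF3E, at 2 to 17 counts per library, had a standard error of 0.64. Summed over the complex, eIF3 reached 3954 ± 480.0 CPM in parental (SD, n = 2), 4451 ± 445.2 in SDHBKO (n = 3) and 4179 ± 57.98 CPM in SDHBKO SDHAlow cells (n = 3), a sum in which EIF3D and EIF3K weigh most.

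The 3 members called in SDHBKO against parental cells are shown with the 250 bases before their RefSeq start (RefSeq promoters, GRCh38.p14, all on the plus strand), because their mRNA levels moved in different directions. Each window was searched on both strands for CACGTG (the E-box), CCGGAAG (the core of ETS sites), TGATGNAA (the core of ATF4 sites) and the palindromic NRF1 motif, and capitals mark the matches. EIF5A is from chr17:7306749-7306998, EIF3F from chr11:7987087-7987336 and EIF3I from chr1:32222157-32222406.
EIF5A: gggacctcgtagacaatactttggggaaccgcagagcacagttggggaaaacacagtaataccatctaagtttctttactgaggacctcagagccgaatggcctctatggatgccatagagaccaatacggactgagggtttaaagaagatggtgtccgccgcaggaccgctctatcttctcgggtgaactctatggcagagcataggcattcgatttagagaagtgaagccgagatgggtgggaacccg
EIF3F: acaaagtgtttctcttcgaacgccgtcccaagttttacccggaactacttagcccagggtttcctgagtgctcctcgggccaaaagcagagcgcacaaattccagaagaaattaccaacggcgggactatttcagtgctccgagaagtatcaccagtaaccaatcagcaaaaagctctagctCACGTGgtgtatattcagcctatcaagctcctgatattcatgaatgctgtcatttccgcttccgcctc
EIF3I: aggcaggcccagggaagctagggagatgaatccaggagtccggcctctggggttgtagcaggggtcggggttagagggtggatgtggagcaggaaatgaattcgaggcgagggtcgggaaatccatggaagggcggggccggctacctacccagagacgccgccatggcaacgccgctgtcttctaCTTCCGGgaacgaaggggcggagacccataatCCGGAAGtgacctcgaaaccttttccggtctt
The EIF5A window held none of the 4 motifs, the EIF3F window held 1 E-box that starts 68 bases before the RefSeq start, and the EIF3I window held 2 ETS cores in opposite orientation. Promoters of 36 of the 46 members were found. Among these, 8 (22.2%) held CACGTG, beside 7.8% of 15843 promoters of protein-coding genes, and 6 (16.7%) held CCGGAAG, beside 11.8%. No member window held TGATGNAA or the NRF1 motif, which 2.2% and 1.5% of all promoters held. The median GC content was 62.6% for the members and 62.4% for all promoters. The EIF3F promoter given by RefSeq starts inside the longer GENCODE gene, and a match in these letters is a description of the sequence only.

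At the control point of the cap, EIF4EBP1 encodes 4E-BP1, which in its unphosphorylated form holds eIF4E away from eIF4G, and its gene is also a target of ATF4. Its level was 152 and 150 CPM in parental cells, 244, 181 and 236 CPM in SDHBKO cells and 136, 125 and 117 CPM in SDHBKO SDHAlow cells. The 3 groups did not overlap: SDHBKO libraries were highest, parental libraries in between and SDHBKO SDHAlow libraries lowest. EIF4EBP1 fell by 0.80 ± 0.20 on the log2 scale (SE) from SDHBKO to SDHBKO SDHAlow cells, to 0.573 of the SDHBKO level (edgeR adjusted p = 0.0687). The difference of SDHBKO from parental cells, 0.55 ± 0.23, did not pass (edgeR adjusted p = 0.206), nor did that of SDHBKO SDHAlow from parental cells, -0.26 ± 0.23 (edgeR adjusted p = 0.689). The call was made in 2 of the 8 fits that leave out 1 library, with edgeR adjusted p from 0.0303 to 0.261 and log2 fold changes from -0.93 to -0.73, and was lost with only the 2 groups in the fit (edgeR adjusted p = 0.128). Its paralogue EIF4EBP2 was at 94.9 and 88.9 CPM in parental, 60.2, 60.0 and 105 CPM in SDHBKO and 110, 85.8 and 101 CPM in SDHBKO SDHAlow cells. The EIF4EBP2 groups overlapped in all 3 comparisons.

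The partners of 4E-BP1 were not called. EIF4E, the cap-binding protein, was low in this assay, at 19.7 and 14.6 CPM in parental, 30.1, 21.1 and 12.9 CPM in SDHBKO and 10.9, 19.4 and 11.1 CPM in SDHBKO SDHAlow cells. With 9 to 26 counts per library, the 95% interval of its log2 fold change ran from -0.71 to 1.30 in SDHBKO against parental cells. EIF4G1, the main scaffold, was at 681 and 657 CPM in parental, 439, 620 and 439 CPM in SDHBKO and 729, 323 and 816 CPM in SDHBKO SDHAlow cells. Replicate 2 was the low library of that last group, and without it the EIF4G1 difference from SDHBKO cells was 0.61 (edgeR adjusted p = 0.0621), against 0.31 (edgeR adjusted p = 0.658) with all libraries. EIF4G1 passed in 1 of the 8 fits that leave out 1 library, with log2 differences from 0.07 to 0.61. EIF4G2, a relative of eIF4G that lacks the eIF4E-binding part, was at 522 and 458 CPM in parental, 235, 375 and 342 CPM in SDHBKO and 438, 437 and 400 CPM in SDHBKO SDHAlow cells. SDHBKO libraries were below all others for EIF4G2, by -0.62 ± 0.22 against parental cells (edgeR adjusted p = 0.127) and with 0.42 ± 0.20 in SDHBKO SDHAlow against SDHBKO cells (edgeR adjusted p = 0.401). The EIF4G2 difference from parental cells passed without replicate 2 of SDHBKO SDHAlow (edgeR adjusted p = 0.0464), with only the 2 groups in the fit (0.0663) and in DESeq2 (0.0679). It passed in 2 of the 8 fits that leave out 1 library, with log2 fold changes from -0.76 to -0.45.

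Among the helicases and their cofactors, EIF4H, a stimulator of eIF4A, was at 64.8 and 77.0 CPM in parental, 46.5, 46.7 and 20.5 CPM in SDHBKO and 47.1, 34.3 and 59.1 CPM in SDHBKO SDHAlow cells. All 6 SDHB-deficient libraries were below the parental ones, with a difference of -0.91 ± 0.35 in SDHBKO cells (log2, SE; edgeR adjusted p = 0.159), and 80.1% of its 3' windows are copied elsewhere. That difference passed without replicate 2 of SDHBKO SDHAlow (edgeR adjusted p = 0.0795) and with only the 2 groups in the fit (0.0893). It passed in 1 of the 8 fits that leave out 1 library, with log2 fold changes from -1.10 to -0.59. EIF4A3, the helicase of the exon junction complex, was at 278 and 292 CPM in parental, 283, 304 and 232 CPM in SDHBKO and 379, 329 and 445 CPM in SDHBKO SDHAlow cells. Its SDHBKO SDHAlow libraries were above all others, by 0.49 ± 0.19 against SDHBKO cells (edgeR adjusted p = 0.292), and by 0.57 ± 0.19 without replicate 2 of SDHBKO SDHAlow (edgeR adjusted p = 0.0937). EIF4A3 passed in 1 of the 8 fits that leave out 1 library, with log2 differences from 0.375 to 0.576. EIF4A2 and EIF4B, a paralogue and a cofactor of EIF4A1, had overlapping groups in all 3 comparisons.

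Subunits of eIF2 and its exchange factor eIF2B, where the stress kinases act, held no call among 8 tested members with all libraries in the fit. EIF2S1, encoding the phosphorylated alpha subunit, was at 16.2 and 23.9 CPM in parental, 17.8, 28.9 and 24.8 CPM in SDHBKO and 19.3, 17.9 and 14.5 CPM in SDHBKO SDHAlow cells, with overlapping groups. EIF2S2, the beta subunit, had 36 counts in SDHBKO replicate 1 against 185 in parental replicate 1, and its log2 fold change of -0.86 ± 0.36 did not pass (edgeR adjusted p = 0.207), whereas it passed without replicate 2 of SDHBKO SDHAlow (edgeR adjusted p = 0.0436). EIF2S3, the gamma subunit, was read at only 3 to 20 counts. The 5 eIF2B subunits summed to 464 ± 23.2 CPM in parental (SD, n = 2), 425 ± 49.5 CPM in SDHBKO (n = 3) and 510 ± 25.0 CPM in SDHBKO SDHAlow cells (n = 3). EIF2B2, a regulatory subunit, was higher in each SDHBKO SDHAlow library than in each SDHBKO library, with a log2 difference of 0.43 ± 0.21 (edgeR adjusted p = 0.424). EIF2B1, EIF2B3, EIF2B4 and EIF2B5 had log2 fold changes between -0.33 and 0.62 in SDHBKO against parental cells.

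The remaining start-site and joining factors held no call with all libraries in the fit. EIF1, EIF1AX, EIF5 and EIF5B, which set the start codon and join the subunits, had log2 fold changes of -0.08, -0.76, -0.59 and -1.10 in SDHBKO against parental cells, all below 0. EIF5B, the GTPase of subunit joining, was at 90.2 CPM in parental replicate 1 and 20.5 to 51.3 CPM in all other libraries, so its difference (edgeR adjusted p = 0.179, and 0.0887 without replicate 2 of SDHBKO SDHAlow) rested on 1 parental library. EIF6, which keeps the subunits apart, differed by -0.04 and -0.25 from parental cells in SDHBKO and SDHBKO SDHAlow cells.

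Elongation factor mRNAs held no call. EEF1G was at 0 counts, and the other means over 8 libraries ran from 404 CPM (EEF1A1) to 2439 CPM (EEF2). EEF2 was at 2268 and 2594 CPM in parental, 2259, 1862 and 3003 CPM in SDHBKO and 2170, 3354 and 1999 CPM in SDHBKO SDHAlow cells. The EEF2 difference from parental cells was -0.03 in SDHBKO cells, with a 95% interval from -0.53 to 0.46. EEF1A1, which delivers aminoacyl-tRNA, was at 330 and 350.5 CPM in parental, 293, 438 and 319 CPM in SDHBKO and 531, 462 and 512 CPM in SDHBKO SDHAlow cells. Every SDHBKO SDHAlow library was above every other library for EEF1A1, with log2 differences of 0.52 ± 0.19 from SDHBKO (edgeR adjusted p = 0.266) and 0.56 ± 0.22 from parental cells (edgeR adjusted p = 0.286). EEF1A1 held only 1.78% to 3.34% of the member counts, and no window at its 3' end was copied elsewhere. Reads mapping to several places, which were not counted, made up 14.5% to 16.1% of SDHBKO and 9.7% to 12.3% of SDHBKO SDHAlow libraries. Their part in the level and difference of EEF1A1 was not tested. EEF1B2 and EEF1D, exchange factors of eEF1A, had log2 fold changes of 0.10 and -0.08 in SDHBKO cells, and EEF1B2 was above the parental range in all SDHBKO SDHAlow libraries (0.36, edgeR adjusted p = 0.515).

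Release factors and poly(A) binding proteins held no call. ETF1 (eRF1), which reads stop codons, differed by -0.27 and GSPT1 (eRF3), its GTPase partner, by 0.33 in SDHBKO against parental cells. PABPC1, the main cytoplasmic poly(A) binding protein, was at 307 and 388 CPM in parental, 387, 504 and 556 CPM in SDHBKO and 608, 486 and 452 CPM in SDHBKO SDHAlow cells. The SDHBKO SDHAlow libraries lay above both parental ones by 0.57 ± 0.23 (log2, SE; edgeR adjusted p = 0.289), with 34.3% of the 3' windows of PABPC1 copied elsewhere. PABPC4 differed by 0.49 in SDHBKO cells with overlapping groups.

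**Figure D4:**
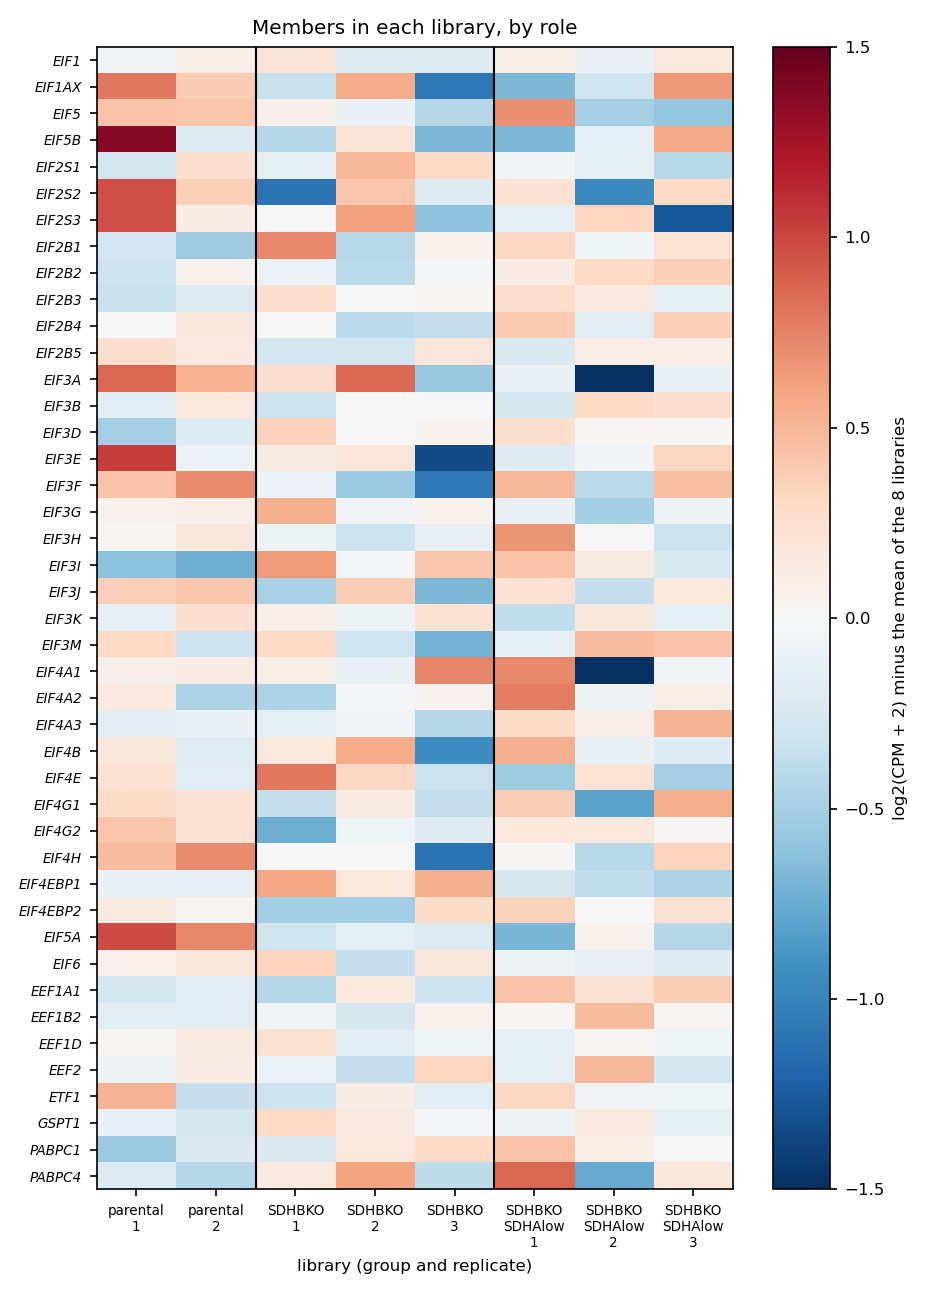
Deviation of each tested member from its mean over the 8 libraries, as log2(CPM + 2), with libraries in columns by group and replicate and members in rows by role; colours stop at 1.5 in either direction. EIF5A is far above its mean in the 2 parental libraries and near or below it in the other 6, while many low-count members (EIF3E, EIF4A1, EIF2S3) vary within a group as much as between groups.

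The members that carry a TOP motif were listed from general knowledge. Of 10 listed, 9 were tested, and only EIF3F was called in any comparison. Their median log2 fold change was -0.03 in SDHBKO against parental, 0.26 in SDHBKO SDHAlow against SDHBKO and 0.07 in SDHBKO SDHAlow against parental cells. In SDHBKO SDHAlow against SDHBKO cells 8 of the 9 were above 0, with none called. There 28 of all 43 tested members and 3856 of the 7550 genes tested were also above 0. The other 34 tested members had medians of -0.09, 0.10 and -0.18. Cytosolic ribosomal protein genes, another TOP class, had medians of 0.02, 0.09 and 0.04 over 78 tested genes, with 5 called higher and 2 lower in SDHBKO against parental cells, 1 lower in SDHBKO SDHAlow against SDHBKO and 2 lower in SDHBKO SDHAlow against parental cells, beside 5.54%, 1.51% and 0.914% of all genes. Of 20 cytosolic aminoacyl-tRNA synthetase genes, 1 was called, lower in SDHBKO against parental cells, and at an unadjusted p of 0.05 in edgeR 5, 6 and 2 of them passed in the 3 comparisons, beside 17.5%, 12.1% and 12.3% of all genes.

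Genes around the members were followed through a list of 51 paralogues, kinases, phosphatases, mTORC1 parts and modifying enzymes, of which 34 were tested. At an unadjusted p of 0.05 in edgeR 4 of these were higher and 5 lower in SDHBKO against parental cells, beside 17.5% of all genes, and MKNK2 alone passed the adjusted threshold, beside 5.54%. MKNK2, a kinase that docks on eIF4G and phosphorylates eIF4E, was at 59.0 and 62.4 CPM in parental, 105, 115 and 106 CPM in SDHBKO and 68.8, 62.7 and 80.2 CPM in SDHBKO SDHAlow cells. The 3 groups did not overlap, with SDHBKO highest. MKNK2 rose by 0.84 ± 0.26 (log2, SE) in SDHBKO cells, or 1.79-fold (edgeR adjusted p = 0.0844), and its difference of -0.63 ± 0.22 between SDHBKO SDHAlow and SDHBKO cells did not pass (edgeR adjusted p = 0.236). The MKNK2 call, like every call in SDHBKO against parental cells, was lost without parental replicate 1. MKNK1, a relative of MKNK2, had the opposite signs, -1.22 and 1.11, at 6 to 31 counts per library (edgeR adjusted p = 0.277 and 0.402).

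Factors outside the classical set were among the smallest p-values without passing. EIF2D, which can deliver initiator tRNA without eIF2, was at 16.2 and 18.6 CPM in parental, 43.8, 34.5 and 32.4 CPM in SDHBKO and 37.4, 41.8 and 39.0 CPM in SDHBKO SDHAlow cells. All 6 SDHB-deficient libraries were above the parental ones, by 1.07 ± 0.37 and 1.18 ± 0.37 on the log2 scale (edgeR adjusted p = 0.122 and 0.166). DENR, whose protein works with MCTS1 in the same kind of reinitiation and recycling, lay below the parental range in both groups, with log2 differences of -1.08 and -0.98 (edgeR adjusted p = 0.133 and 0.283). MCTS1 lay above the parental range in SDHBKO cells, by 0.65 ± 0.27 (edgeR adjusted p = 0.199). ABCE1, the ribosome recycling ATPase, differed by -1.68 ± 0.55 in SDHBKO cells (edgeR adjusted p = 0.104), with 1, 13 and 12 counts there against 27 and 25 in parental cells. EIF2AK2, encoding the double-stranded RNA kinase of eIF2, had 22 and 11 counts in parental cells and 1 to 7 in all others, with a log2 difference of -1.93 ± 0.68 in SDHBKO SDHAlow cells (edgeR adjusted p = 0.227). The paralogue EEF1A2 was at 193 and 203 CPM in parental cells and at 239 to 427 CPM in the 6 SDHB-deficient libraries (0.65 ± 0.25, edgeR adjusted p = 0.172).

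**Figure D5:**
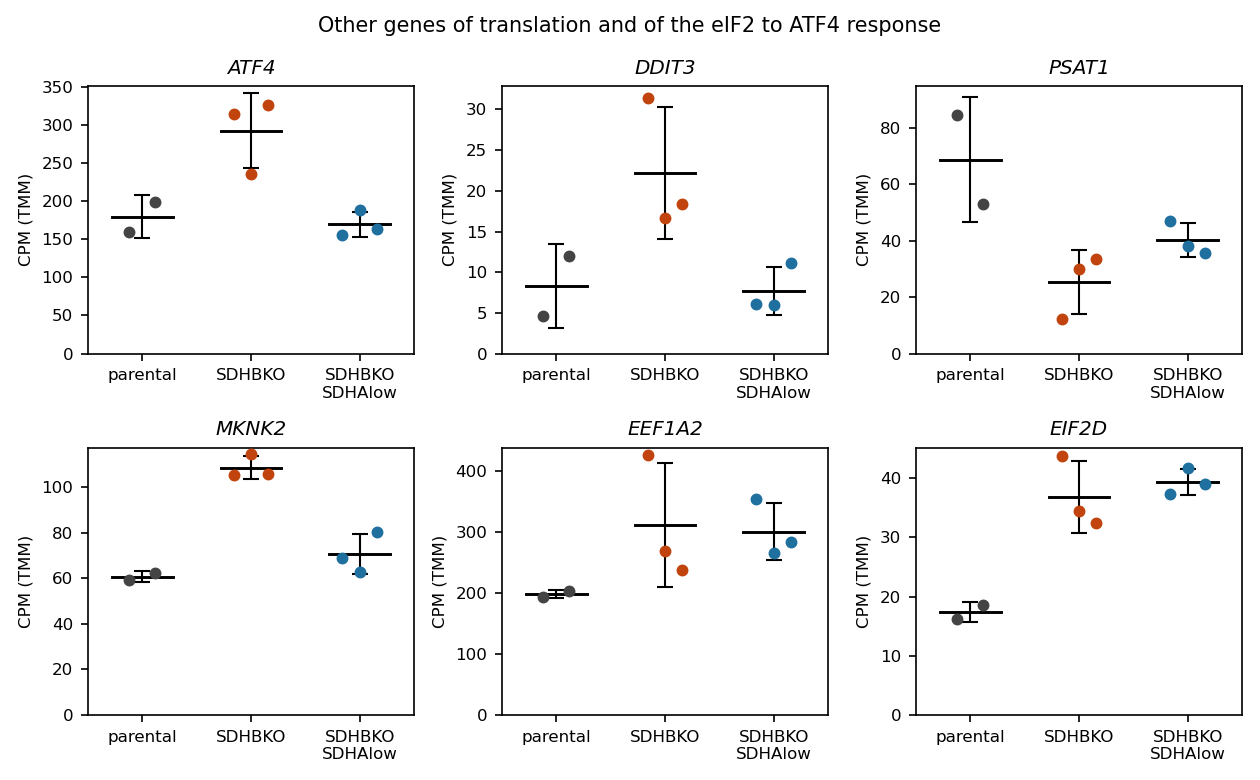
Level in each library (points; CPM, linear axes from 0) of 3 genes downstream of eIF2 phosphorylation (ATF4, DDIT3, PSAT1) and 3 genes around the members (MKNK2, EEF1A2, EIF2D), with group mean and SD as bars (parental n = 2, the other groups n = 3). ATF4, DDIT3 and MKNK2 are highest in SDHBKO cells, PSAT1 is lowest there, and EEF1A2 and EIF2D are above the parental level in both SDHB-deficient groups.

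ATF4 is the transcription factor whose translation rises when eIF2 is phosphorylated, and its targets serve as a transcript-level record of that control point. ATF4 mRNA was at 160 and 199 CPM in parental, 315, 236 and 326 CPM in SDHBKO and 156, 188 and 164 CPM in SDHBKO SDHAlow cells. SDHBKO libraries were above all others. ATF4 fell by 0.78 ± 0.20 on the log2 scale (SE) from SDHBKO to SDHBKO SDHAlow cells (edgeR adjusted p = 0.075), and its difference of 0.70 ± 0.23 in SDHBKO against parental cells did not pass (edgeR adjusted p = 0.103). DDIT3 (CHOP) had the same order of group means at lower counts (1.42 ± 0.58 and -1.51 ± 0.49, edgeR adjusted p = 0.191 and 0.194).

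Other genes of the ATF4 list did not share this order. PSAT1, an enzyme of serine synthesis, was at 84.4 and 53.1 CPM in parental, 12.3, 30.02 and 33.5 CPM in SDHBKO and 47.1, 38.1 and 35.7 CPM in SDHBKO SDHAlow cells. PSAT1 fell by 1.42 ± 0.36 on the log2 scale (SE) in SDHBKO cells (edgeR adjusted p = 0.0395), a call that was also lost without parental replicate 1. PHGDH, the entry enzyme of the same pathway, held 12 and 10 counts in parental cells and 0 in all 6 other libraries, and was not tested. ASNS, the asparagine synthetase, differed by 0.79 ± 0.37 and 1.10 ± 0.36 from parental cells in SDHBKO and SDHBKO SDHAlow cells (edgeR adjusted p = 0.270 and 0.199). Of the 14 genes of this list, 10 were tested, and ATF4 and PSAT1 were the 2 called. At an unadjusted p of 0.05 in edgeR 3 were higher and 3 lower in SDHBKO against parental cells, beside 17.5% of all genes, and the calls stand beside 5.54% (PSAT1) and 1.51% (ATF4) of all genes. The group means of EIF4EBP1 had the order of ATF4. In SDHBKO SDHAlow against parental cells neither gene passed (edgeR adjusted p = 0.689 for EIF4EBP1 and 0.92 for ATF4). Neither passed in SDHBKO against parental cells, and a link between them was not tested.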

How the data were processed

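Libraries of total RNA from 8 MDA231 samples were made with a forward QuantSeq kit, which reads the 3' end of transcripts and keeps strand. The authors trimmed reads with Trimmomatic, took out ribosomal and mitochondrial RNA with Sortmerna, aligned them to GRCh38 with STAR 2.5.2b, and deposited raw counts of reads that map to 1 place in a gene; the strand column used is not given in the sources used here. A second deposited signal, counts scaled by DESeq2 size factors, served as a check only, since the values of SDHBKO replicates 1 and 3 are swapped there against the raw files. Entries naming no gene (18.8% to 28.6% of reads) were left out.

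In R 4.3.3, 7550 genes passed a BaseMean minimum of 5. They were normalised by TMM and fitted with edgeR 4.0.16 (quasi-likelihood test), all 8 libraries and 3 groups together, with Benjamini-Hochberg adjustment over all genes tested and calls below 0.1. The BaseMean minimum and the threshold of 0.1 follow the study, whose own test was DESeq2, an alternative here. The SE is the log2 fold change divided by the root of F. On simulated counts shaped like SDHBKO against parental cells (7359 genes), genes were changed by 1 or 2 on the log2 scale. Of 100 genes changed by 1, 68% were recovered, and of 100 changed by 2, 100%. The changed genes were drawn only from those with higher mean counts, so recovery was not measured for members read at low counts. Total counts of 773042 to 1427141 limit precision. Gene positions, 3' ends and overlaps came from GENCODE 44.

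Members and lists were chosen with earlier results of these data known. Members called in any comparison, the 5 of smallest p in each and the usual points of control were given in every library. Pathway genes called or among the 3 of smallest p in a comparison were named, and MKNK1 and DHPS entered by this last rule. EIF3D, EIF5B, EIF2S2, EIF2B2, EIF4A1, EEF1A2, MCTS1, the ATF4 targets and the genes near EIF5A were singled out after their values were seen. Alternatives were DESeq2 1.42.0, its size factors within edgeR, other filters, a threshold of 0.05, only the 2 groups compared, a replicate block and leaving out each library. Same-numbered libraries had deviations with a mean correlation of -0.07 (7 pairs, -0.27 to 0.093), so the numbers were not taken as pairs.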

Additional observations from a re-analysis of the deposited data

How the results depend on the processing

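Members called in SDHBKO against parental cells numbered 5 with no filter on low counts and 7 with only the 2 groups compared, beside 3 as reported. EIF5A, EIF3F and EIF3I were among them each time. Fits that leave out a parental library assume that the other one varies like the remaining groups. Leaving out 1 library gave 0 to 8 calls, the 0 without parental replicate 1 and the 8 without SDHBKO SDHAlow replicate 2. In SDHBKO SDHAlow against SDHBKO cells the count was 0 at an adjusted p of 0.05, with only the 2 groups compared and with a replicate block, and 0 to 4 without 1 library (4 without SDHBKO SDHAlow replicate 2); in SDHBKO SDHAlow against parental cells it was 0 with only the 2 groups and with the replicate block, and 0 to 1 without 1 library. The block left 2 members called in SDHBKO against parental cells. It ended the calls of EIF3F (edgeR adjusted p = 0.102), EIF4EBP1 (0.171) and EIF5A in SDHBKO SDHAlow against parental cells (0.109), and turned EIF4EBP2 there to -0.034. With only the 2 groups compared, EIF4EBP1 (edgeR adjusted p = 0.128) and EIF5A in SDHBKO SDHAlow against parental cells (0.125) were lost. The members' median log2 fold change ranged over the libraries left out from -0.15 to -0.028, from -0.021 to 0.178 and from -0.139 to -0.032 in the 3 comparisons. Over all genes, calls in SDHBKO against parental cells numbered 418 as reported, 777 with only the 2 groups, 199 with the replicate block, 171 at 0.05, 394 of 3168 tested with DESeq2, 0 without parental replicate 1 and 846 without SDHBKO SDHAlow replicate 2; in SDHBKO SDHAlow against SDHBKO cells they numbered 114, 64, 59, 64, 128 of 4492, 62 and 375, and in SDHBKO SDHAlow against parental cells 69, 7, 12, 13, 79 of 3963, 4 and 173, with 152 in that last comparison with no filter.

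Single log2 fold changes of named members that changed sign when 1 library was left out were, in SDHBKO against parental cells, EEF1A1 (-0.15 to 0.16), EIF4A3 (-0.146 to 0.057), EIF4E (-0.015 to 0.574) and EEF2 (-0.22 to 0.12). In SDHBKO SDHAlow against SDHBKO cells they were EIF5A (-0.353 to 0.063), EIF4H (-0.021 to 0.494), PABPC1 (-0.042 to 0.2) and EEF2 (-0.21 to 0.27), and in SDHBKO SDHAlow against parental cells EIF4G1 (-0.35 to 0.20), EIF2S1 (-0.472 to 0.08) and EEF2 (-0.23 to 0.19). The cause was not tested. EIF5A, EIF3I and EIF3F kept their direction against parental cells in every setting tried. At this depth members under about 30 counts per library had standard errors near 0.4 to 0.6.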
